A study of Mus musculus with 12 samples.

Results

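Anti-PD-1 antibody given alone was set against vehicle in tumors of CT26, a mouse colon carcinoma line, grown in BALB/c mice. The comparison rests on 6 of the 12 tumors measured, 3 from mice given anti-PD-1 antibody (200 µg per mouse) and 3 from mice given vehicle. The other 6 tumors came from mice given DSP-0509, a TLR7 agonist, at 5 mg/kg i.v. (3 tumors) or the combination of both agents (3 tumors), and they are used only where the antibody tumors are set against them. In all groups, 1000000 cells were placed in the dorsal flank, mice entered a group once tumors measured 130 to 170 mm3 per the labels, and tumors were collected on day 4 after dosing. The labels give no age for these mice. RNA of whole tumors was counted with the nCounter mouse immune panel, which reads a barcoded probe for each gene without amplification. The deposited value, called signal here, is that count multiplied by a factor for each tumor. A gene was tested if its signal was at least 20 in at least 3 of the 12 tumors, which 646 of 750 endogenous genes met. Of the 104 genes left out, 94 were under 20 in all 6 tumors compared.

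PD-1, encoded by Pdcd1, is an inhibitory receptor that T cells put on their surface after activation. Its ligands PD-L1 (Cd274) and PD-L2 (Pdcd1lg2) sit on tumor cells and on antigen-presenting cells, and binding damps signalling from the T cell receptor and from CD28. An antibody that blocks PD-1 lifts this brake on T cells, and interferon gamma released by T cells and NK cells is known to switch on guanylate-binding proteins, the chemokines Cxcl9 and Cxcl10, the immunoproteasome and MHC class I, and PD-L1 itself.

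The tumors were a mixture of carcinoma and host cells. Of the carcinoma genes, Msln (mesothelin) was well measured, at 2083, 1747 and 2038 in the antibody tumors and 2550, 2510 and 2533 in the vehicle tumors, whereas the epithelial genes Epcam (32.1 to 64.4 with antibody, 29.0 to 40.5 with vehicle) and Cdh1 (44.9 to 92.2 with antibody, 29.1 to 40.2 with vehicle) were low. Total counts were 845248 to 982169 per antibody tumor and 856045 to 1022512 per vehicle tumor. The 8 negative control probes averaged 11.4 to 12.4 counts in the antibody tumors and 7.75 to 10.8 counts in the vehicle tumors, so that signals of about 10 to 20 lay near this background, which was itself higher in the antibody tumors. The 20 housekeeping genes differed by -0.22 to 0.15 on the log2 scale (median -0.04). The tumors numbered 1 stood apart from the others of their groups. On the first principal component of all genes tested, which held 52.9% of the variance, anti-PD-1 antibody 1 lay at -10.2 and vehicle 1 at -19.1, and both held more Vegfa (4103 in anti-PD-1 antibody 1, against 3717 in vehicle 1) than the other tumors of their groups (1580 and 1664 with antibody, 2441 and 2331 with vehicle).

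Under the deposited scaling most genes of the panel lay somewhat higher in the antibody tumors, a majority that median centring and quantile normalization turned round, and none passed the main test. The log2 difference, anti-PD-1 antibody minus vehicle on log2(signal + 1), was positive for 440 of 646 genes (68.1%), with a median of 0.18. Centring each tumor on its median gene moved that median by -0.29 and left 266 genes (41.2%) positive, and quantile normalization left 270 (41.8%). The signals of all 3 antibody tumors lay above those of all 3 vehicle tumors for 80 genes (12.4%) and below them for 13 genes (2.01%). These counts turned round to 42 above and 88 below after median centring and to 49 above and 59 below after quantile normalization. In limma over all 12 tumors, 0 of 646 genes (0%) had an adjusted p under 0.05, with 82 higher genes (12.7%) and 1 lower gene (0.155%) at an unadjusted p under 0.05 under the deposited scaling, 39 higher and 58 lower after median centring, and 45 higher and 25 lower after quantile normalization. The smallest adjusted p in limma was 0.114, shared by Ido1, Gbp2b and Gbp5.

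With the replicate number added to the limma fit as a block, 32 genes (4.95%) were called, all of them higher in the antibody tumors, and 0 genes (0%) were lower. In 21 of these 32 the groups did not overlap. All 32 were higher in anti-PD-1 antibody 1, 2 and 3 than in the vehicle tumor of the same number, by 0.35 to 1.95 on the log2 scale. Over all genes tested, 278 (43%) were higher and 73 (11.3%) lower in all 3 such pairs. With the block and median centring together 0 genes were called. The block fitted to the 6 tumors alone also called 0 genes, the 32 genes then having limma adjusted p of 0.0562 to 0.103. With array weights, which count a tumor less the further it lies from the fit, limma called 165 genes (25.5%), 153 higher (23.7%) and 12 lower (1.86%), among them 31 of the 32 called with the block. The weights were 0.23 for anti-PD-1 antibody 1 and 0.33 for vehicle 1, and 3.11 and 2.97 for the tumors numbered 2. What a number stands for is not given in the sources used here. Below, "with the block" refers to the fit over all 12 tumors. Counts within a list stand against 12.4% above without overlap and 4.95% called over all genes, shares at which a short list would hold few calls.

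**Figure D1:**
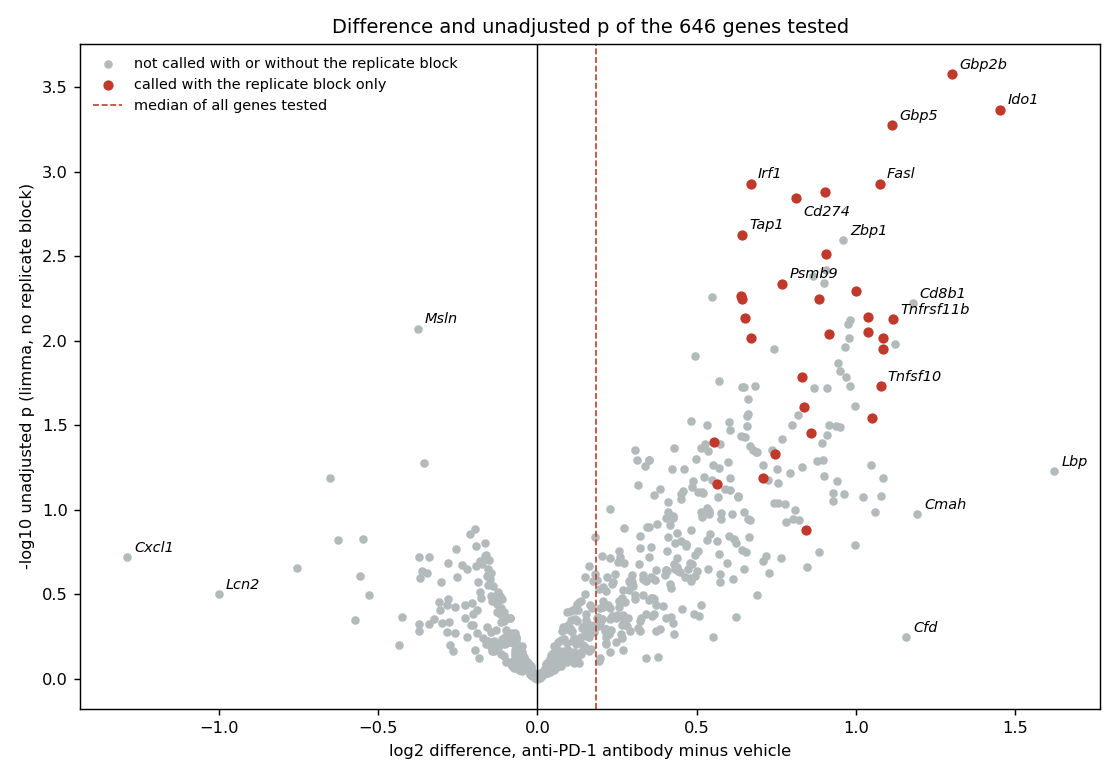
The x axis shows the log2 difference of each of the 646 genes tested, anti-PD-1 antibody minus vehicle, and the y axis -log10 of the unadjusted limma p without the block. Red points are the 32 genes called with the block, all to the right of 0, and the dashed line is the median of all genes at 0.18.

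Genes known to respond to interferon gamma made up much of the upper end. All 19 genes of this list had a positive difference under the deposited values, housekeeping scaling, quantile normalization and median centring, with a median of 0.81 against 0.18 for all genes. The groups did not overlap for 13 of the 19, and 11 were called with the block. Gbp2b, a guanylate-binding GTPase of cell-autonomous defence, measured 7558, 9648 and 9721 in the antibody tumors and 3370, 4246 and 3312 in the vehicle tumors. Its lowest antibody tumor was well above the highest vehicle tumor, with a log2 difference of 1.30 (SE 0.24, limma adjusted p = 0.114, 0.0338 with the block). Gbp5, of the same family, measured 841, 1234 and 1243 with antibody against 403, 680 and 463 with vehicle (log2 difference 1.11). Ido1, the enzyme that starts tryptophan breakdown, measured 69.5, 77.3 and 94.4 in the antibody tumors and 24.9, 39.3 and 23.6 in the vehicle tumors. No tumors overlapped, and the log2 difference was 1.45 (SE 0.29, limma adjusted p = 0.114, 0.0338 with the block).

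Irf1, which carries the interferon gamma signal on to MHC class I genes, measured 3235, 3787 and 4063 with antibody against 2217, 2457 and 2270 with vehicle, with no overlap and a log2 difference of 0.67 (SE 0.15, limma adjusted p = 0.132, 0.0429 with the block). Nlrc5, the transactivator of MHC class I, was called with the block (log2 difference 0.65). Of the 15 genes of the cytokine, receptors, JAKs and STATs, 12 had a positive difference (6 after median centring or quantile normalization), 4 lay above and 1 below without overlap, and 0 were called with the block, with a median of 0.14. Tyk2, a kinase of the type I receptor (0.33, just below 0 after quantile normalization), and Stat2, a partner in type I signalling (0.58), were among those above, and Stat6, the factor downstream of IL-4 (-0.09), lay below. The receptor subunit Ifngr1 had a log2 difference of 0.07, and the kinase Jak1 one of 0.01, both with overlapping tumors and both negative after median centring or quantile normalization. Ifng itself, the cytokine, was close to background at 19.3, 36.7 and 39.3 in the antibody tumors and 12.5, 12.2 and 20.9 in the vehicle tumors. Anti-PD-1 antibody 1 overlapped with vehicle 3, and the log2 difference was 1.00 (SE 0.38, limma adjusted p = 0.313, 0.122 with the block).

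Genes known best as targets of type I interferon had a median between that of the interferon gamma response genes and that of all genes. Of 25 tested, 23 had a positive difference (17 after median centring), with a median of 0.42. The groups did not overlap for 6 and 0 were called with the block. Over all genes 12.4% lay above without overlap and 4.95% were called, so 0 calls among 25 genes say little. Zbp1, a sensor of unusual nucleic acids, led them at 2342, 2810 and 3186 with antibody against 1059, 1673 and 1604 with vehicle (log2 difference 0.96, limma adjusted p = 0.0525 with the block). Ifit1 (0.36), Oas2 (0.37) and Isg20 (-0.06), all classed as antiviral genes, had smaller log2 differences and overlapping tumors.

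**Figure D2:**
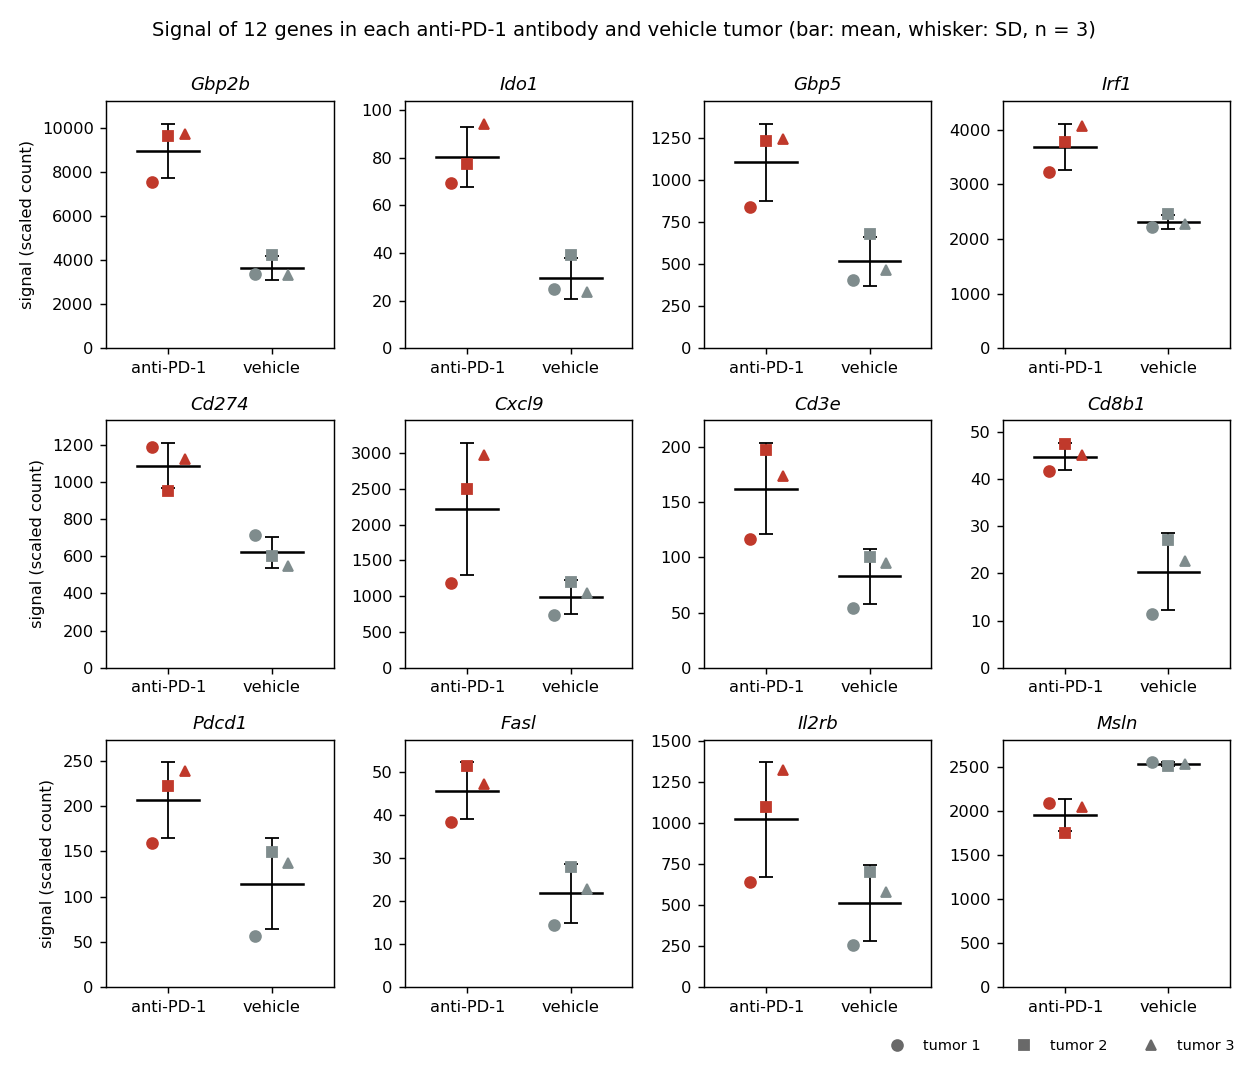
The y axis of each panel is signal, the deposited scaled count, starting at 0. Each point is a tumor, with anti-PD-1 antibody left of vehicle, symbols giving the tumor number, bars the mean and whiskers the SD of 3 tumors. The groups do not overlap for 10 of the 12 genes shown, the exceptions being Cxcl9 and Il2rb, and Msln alone is lower with antibody.

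The promoters of the 5 genes with the largest log2 differences among the non-overlapping genes that have an entry are shown. Ido1 and Cd8b1, with log2 differences of 1.45 and 1.18, are not among these 5. They run from 250 bases before to 50 bases after the start site, from RefSeq on GRCm38.p6, and Il15ra has a pair of start sites. The capitals mark matches, on either strand, to the gamma-activated site GAS (TTCNNNGAA) or to the core of the interferon-stimulated response element (GAAANNGAA).
Gbp2b, chr3:142594597-142594896, plus strand: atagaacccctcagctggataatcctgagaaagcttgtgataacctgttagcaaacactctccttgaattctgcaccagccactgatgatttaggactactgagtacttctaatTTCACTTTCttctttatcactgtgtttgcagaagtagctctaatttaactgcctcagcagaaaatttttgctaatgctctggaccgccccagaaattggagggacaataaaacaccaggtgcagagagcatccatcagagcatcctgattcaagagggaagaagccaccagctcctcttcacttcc
Klrc1, chr6:129678924-129679223, minus strand: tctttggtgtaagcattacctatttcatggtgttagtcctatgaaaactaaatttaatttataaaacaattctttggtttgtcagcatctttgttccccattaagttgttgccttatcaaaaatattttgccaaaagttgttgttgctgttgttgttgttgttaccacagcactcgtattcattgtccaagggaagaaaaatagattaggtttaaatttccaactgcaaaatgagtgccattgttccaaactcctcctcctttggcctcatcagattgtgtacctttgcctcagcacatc
Gbp5, chr3:142496684-142496983, plus strand: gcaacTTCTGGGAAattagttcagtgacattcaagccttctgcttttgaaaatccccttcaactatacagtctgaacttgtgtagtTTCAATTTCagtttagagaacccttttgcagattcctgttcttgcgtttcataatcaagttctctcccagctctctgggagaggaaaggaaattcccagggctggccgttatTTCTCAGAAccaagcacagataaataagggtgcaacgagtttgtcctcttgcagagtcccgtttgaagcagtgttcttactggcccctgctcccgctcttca
Il15ra upstream start site, chr2:11705043-11705342, plus strand: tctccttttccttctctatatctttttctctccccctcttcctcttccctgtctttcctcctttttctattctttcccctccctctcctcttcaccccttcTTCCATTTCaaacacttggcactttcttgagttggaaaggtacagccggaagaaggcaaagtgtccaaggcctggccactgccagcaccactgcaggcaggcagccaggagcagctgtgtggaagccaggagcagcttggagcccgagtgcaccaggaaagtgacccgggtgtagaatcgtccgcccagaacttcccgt
Il15ra downstream start site, chr2:11705462-11705761, plus strand: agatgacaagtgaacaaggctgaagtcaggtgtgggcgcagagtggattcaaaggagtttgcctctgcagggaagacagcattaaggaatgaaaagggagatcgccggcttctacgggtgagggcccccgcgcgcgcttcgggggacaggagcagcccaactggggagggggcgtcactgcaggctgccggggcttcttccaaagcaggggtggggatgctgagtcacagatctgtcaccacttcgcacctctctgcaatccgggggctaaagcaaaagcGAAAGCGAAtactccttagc
Fasl, chr1:161788446-161788745, minus strand: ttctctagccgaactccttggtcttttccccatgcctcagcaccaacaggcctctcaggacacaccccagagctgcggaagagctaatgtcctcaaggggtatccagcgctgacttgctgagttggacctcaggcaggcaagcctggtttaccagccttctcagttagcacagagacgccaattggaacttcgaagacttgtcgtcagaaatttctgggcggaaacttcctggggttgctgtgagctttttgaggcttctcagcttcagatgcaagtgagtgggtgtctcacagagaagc
The Gbp5 window held 2 GAS matches, at -245 and -52 from the start site, and 1 response element core at -164. Gbp2b held 1 core, at -136, and the Il15ra windows 1 core each, at -149 and 31. Klrc1 and Fasl held neither. Among all 32851 promoters of the table, 8.3% held a GAS match and 8.56% a core, among the 588 promoters of genes tested 11.9% and 13.3%, and among the 69 promoters of non-overlapping higher genes 15.9% and 18.8%. These are matches of letters and were not tested.

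Antigen presentation on MHC class I was among the most even of the groups. All 12 genes tested had a positive difference (11 of 12 after median centring), with a median of 0.65, 10 did not overlap and 4 were called with the block. The peptide transporter subunit Tap1 measured 2371, 2709 and 2986 in the antibody tumors and 1470, 1989 and 1726 in the vehicle tumors (log2 difference 0.64, limma adjusted p = 0.0408 with the block). The immunoproteasome subunit Psmb9 measured 1680, 2160 and 2328 with antibody against 942, 1407 and 1287 with vehicle (0.77, limma adjusted p = 0.0338 with the block). The other called members were Nlrc5 and the non-classical class I gene H2-T23, at 3518, 4588 and 5231 with antibody against 2072, 3062 and 3289 with vehicle. Of the 12 genes, the heavy chain gene H2-D1 differed least. H2-D1 measured 28428, 27753 and 27800 with antibody against 22811, 25217 and 23788 with vehicle, a log2 difference of 0.23 with no overlap (limma adjusted p = 0.457), and it was just below 0 after median centring (-0.06).

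MHC class II followed another pattern. H2-Ab1, a class II beta chain, measured 2202, 4032 and 4152 in the antibody tumors and 1867, 1804 and 2762 in the vehicle tumors. Anti-PD-1 antibody 2 and 3 were high, while anti-PD-1 antibody 1 lay among the vehicle tumors. The log2 difference was 0.66 (SE 0.38, limma adjusted p = 0.468). H2-Aa, H2-Eb1 and the invariant chain Cd74 had the same order of tumors, with log2 differences of 0.56 to 0.67. The class II transactivator Ciita measured 56.7, 187 and 165 with antibody against 49.9, 51.4 and 80.0 with vehicle. Of the 10 class II genes, 1 did not overlap (H2-DMb1, near background) and 0 were called with the block. Over all genes 12.4% lay above without overlap and 4.95% were called, so these counts do not set the list apart. Without anti-PD-1 antibody 1 and vehicle 1, the median of the list was 0.82 in place of 0.61.

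T cell genes had differences of about the size seen for the interferon gamma genes. All 9 T cell markers had a positive difference under each scaling tried, with a median of 0.80, 4 did not overlap and 2 were called with the block. Cd3e, a chain of the T cell receptor complex, measured 117, 197 and 174 in the antibody tumors and 54.0, 100 and 94.6 in the vehicle tumors. Its log2 difference was 0.98 (SE 0.30, limma adjusted p = 0.202, 0.0656 with the block), and Cd3d (0.97) and Cd3g (0.98) matched it. Cd247, the zeta chain, was called with the block at 62.0, 78.3 and 112 with antibody against 28.1, 50.5 and 42.7 with vehicle (1.04, limma adjusted p = 0.0457). In RNA of whole tumors, more cells of a type and more RNA per cell cannot be told apart.

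Both CD8 chains separated the groups. Cd8a measured 126, 172 and 172 in the antibody tumors and 58.2, 100 and 81.8 in the vehicle tumors (log2 difference 0.98), and Cd8b1 41.7, 47.6 and 45.2 with antibody against 11.4, 27.1 and 22.7 with vehicle (1.18). Neither passed with the block (limma adjusted p = 0.0682 and 0.0541). Vehicle 1, with 11.4 for Cd8b1, was at the level of the negative probes. Leaving out anti-PD-1 antibody 1 and vehicle 1 gave 0.88 for Cd8b1 and 0.92 for Cd8a. Cd4 overlapped, at 28.9, 76.3 and 62.9 with antibody against 27.0, 29.9 and 35.5 with vehicle. Foxp3, the regulatory T cell factor, was low at 10.7, 29.7 and 34.4 with antibody against 9.36, 16.8 and 11.8 with vehicle. Of the 7 regulatory T cell markers, all positive with a median of 0.81, Il2ra and Ctla4 were called with the block, and both are also found on other activated T cells.

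Downstream of the T cell receptor, 12 of 12 genes had a positive difference (10 of 12 after median centring or quantile normalization), with a median of 0.64 and 3 called with the block. The kinase Zap70 did not overlap (71.7, 94.1 and 120 with antibody against 29.1, 69.2 and 58.2 with vehicle), with a limma adjusted p of 0.0509 with the block. Early response genes, which can be induced in many cell types, had no common direction. Egr1 (-0.20), Jun (-0.14) and Dusp6 (-0.13) overlapped between the groups, and the median of the 10 genes was -0.04. Cd69 (0.65), Fos (0.65) and Il2ra (0.91) were the members without overlap.

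Cytotoxic genes had a median of 0.94, with 9 of 9 positive under each scaling. Without anti-PD-1 antibody 1 and vehicle 1 the median was 0.81, and with array weights 0.66. The groups did not overlap for 3 of the 9 and 2 were called with the block, against 12.4% above and 4.95% called over all genes. Fasl, the death ligand of killer cells, measured 38.5, 51.5 and 47.2 in the antibody tumors and 14.6, 28.0 and 22.7 in the vehicle tumors. The lowest antibody tumor exceeded the highest vehicle tumor, and the log2 difference was 1.07 (SE 0.24, limma adjusted p = 0.132, 0.0354 with the block). Tnfsf10, encoding the death ligand TRAIL, measured 112, 237 and 257 with antibody against 52.0, 129 and 106 with vehicle (1.08, limma adjusted p = 0.0428 with the block). The pore-forming protein gene Prf1 did not overlap at 327, 324 and 401 with antibody against 153, 275 and 153 with vehicle (0.91, limma adjusted p = 0.0748 with the block). Gzmb, a granzyme, measured 252, 260 and 347 with antibody against 108, 255 and 115 with vehicle. Vehicle 2 was as high as the antibody tumors, and the limma adjusted p was 0.237. That tumor decided more than this gene. Without vehicle 2, limma called 9 genes, among them Fasl, Gbp2b, Gbp5, Gzmb, Gzmm, Ido1, Klrg1 and Prf1.

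NK receptors had differences of like size. Klrc1, encoding NKG2A, which T cells also carry, measured 451, 657 and 624 in the antibody tumors and 154, 372 and 312 in the vehicle tumors (log2 difference 1.12, limma adjusted p = 0.207). The defining NK gene Ncr1 overlapped, at 96.3, 278 and 369 with antibody against 53.0, 208 and 195 with vehicle. Klra7 was the 1 of 6 NK markers called with the block (52.4, 67.4 and 98.3 with antibody against 28.1, 43.9 and 62.8 with vehicle), and as a member of a family of near-identical receptors its value is uncertain, since relatives could share its probe. Summed over the 9 NK markers listed, signal was 1241 to 2494 in the antibody tumors and 580 to 1480 in the vehicle tumors. That sum includes Klrb1c, Klra1 and Klra4, which were too low to be tested.

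The target of the antibody, Pdcd1, measured 159, 222 and 239 in the antibody tumors and 56.1, 150 and 137 in the vehicle tumors, without overlap (log2 difference 0.95, SE 0.38, limma adjusted p = 0.332, 0.0754 with the block). The narrow gap, between 159 in anti-PD-1 antibody 1 and 150 in vehicle 2, is smaller than the spread within either group. Its ligand Cd274 was called with the block, at 1191, 954 and 1128 with antibody against 714, 602 and 550 with vehicle (0.81, SE 0.19, limma adjusted p = 0.132, 0.0338 with the block). The second ligand, Pdcd1lg2, overlapped at 71.7, 46.6 and 79.6 with antibody against 42.6, 47.7 and 26.4 with vehicle.

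Other inhibitory receptors were split. Ctla4, the CD28 competitor, measured 90.9, 91.2 and 121 with antibody against 49.9, 49.5 and 60.0 with vehicle (0.91, limma adjusted p = 0.0338 with the block), and Lag3, which binds MHC class II, 101, 129 and 153 with antibody against 48.9, 80.4 and 66.4 with vehicle (0.97, limma adjusted p = 0.0509 with the block). Tigit (0.14, negative after median centring or quantile normalization) and Btla (0.34) overlapped. Havcr2, encoding TIM-3, was under 20 in all 6 tumors and was not tested. Among inhibitory ligands and enzymes, Entpd1, the ectoenzyme CD39, was called with the block (282, 453 and 439 with antibody against 206, 275 and 306 with vehicle), while Arg1, the arginase of myeloid cells, ran from 417 to 2615 in the antibody tumors and from 1436 to 3413 in the vehicle tumors. Of the co-stimulatory genes, Cd40 was called with the block (76.0, 138 and 127 with antibody against 49.9, 59.8 and 69.1 with vehicle), Icos and Cd27 did not overlap, and Tnfrsf9 (-0.37) overlapped.

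**Figure D3:**
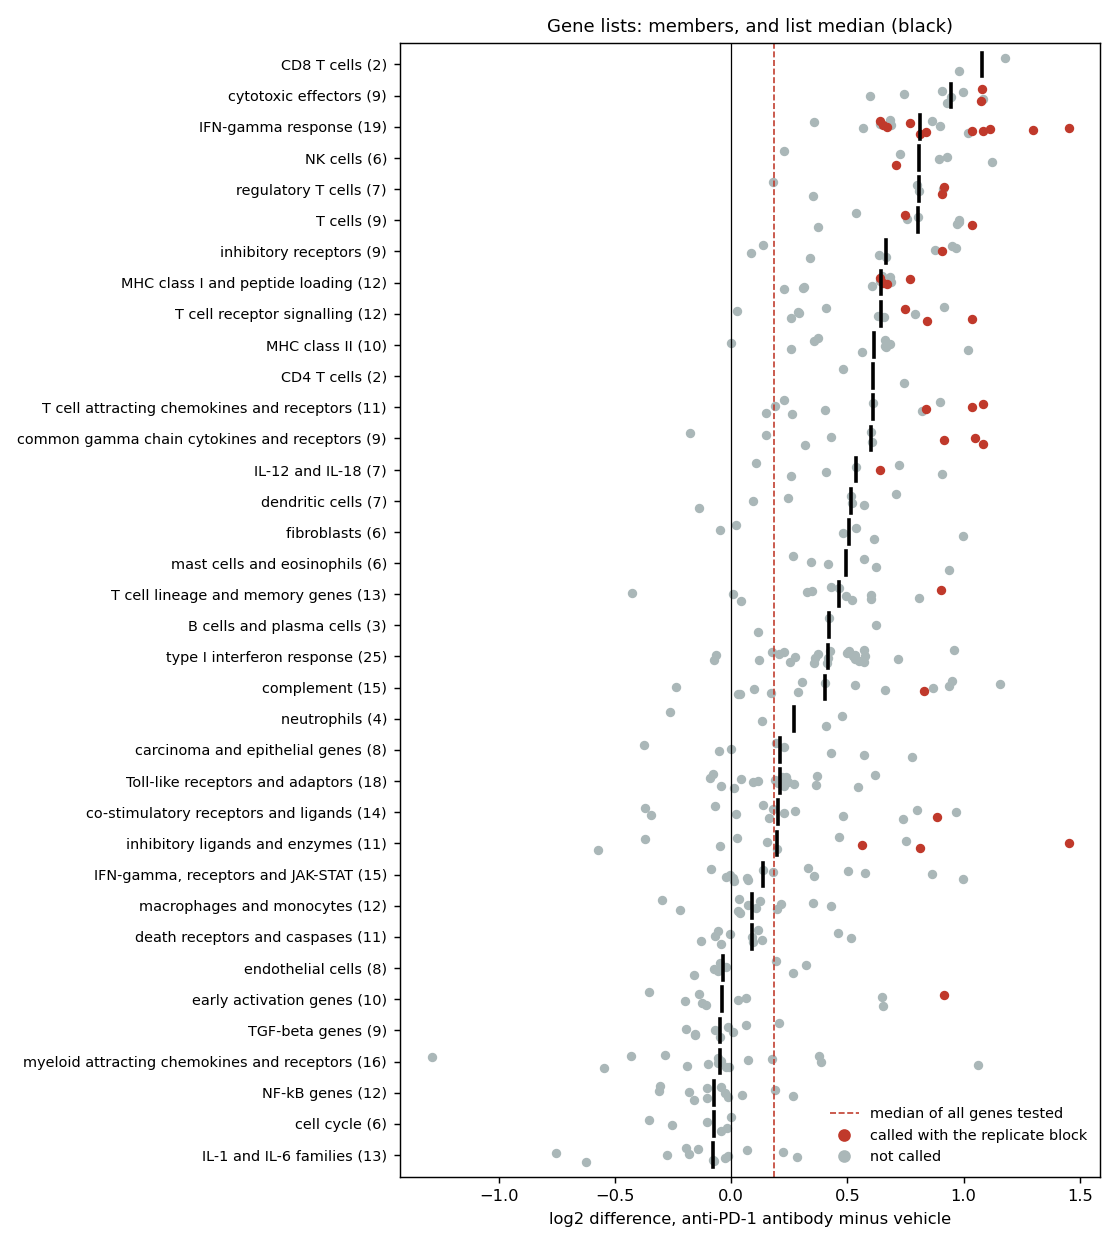
The x axis is the log2 difference, anti-PD-1 antibody minus vehicle, and each row is a gene list with the number of members tested. Points are genes, red where called with the block, black ticks are list medians and the dashed line is the median of all genes. The 11 called interferon gamma response genes run from 0.64 to 1.45, and the IL-1 and IL-6 row, with a median of -0.08, is the lowest.

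Chemokines of the Cxcr3 axis, which draws activated T cells, were called with the block as a trio. Cxcl9 measured 1185, 2495 and 2974 in the antibody tumors and 733, 1199 and 1046 in the vehicle tumors, Cxcl10 801, 1661 and 1708 with antibody against 528, 935 and 805 with vehicle, and Cxcl11 169, 383 and 427 with antibody against 129, 168 and 146 with vehicle. In the first 2 of these, anti-PD-1 antibody 1 lay within the vehicle range, so that the groups overlapped. The log2 differences were 1.09, 0.84 and 1.04 (limma adjusted p = 0.0354, 0.0429 and 0.0429 with the block). The receptor Cxcr3 overlapped (46.0, 73.3 and 72.8 with antibody against 22.9, 43.9 and 66.4 with vehicle), and Cxcr6, a receptor of tissue-resident T cells, did not (193, 284 and 238 with antibody against 76.9, 176 and 147 with vehicle). The 16 genes of chemokines that draw myeloid cells and their receptors had a median of -0.05, with 0 called with the block. Cxcl1, a neutrophil attractant, had the most negative difference of all genes at -1.29, but at 885, 101 and 145 with antibody against 1335, 493 and 290 with vehicle its groups overlapped and the number 1 tumors were highest in both (limma adjusted p = 0.589, 0.0509 with the block).

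Receptors for IL-2 and IL-15, cytokines that sustain T and NK cells, were called with the block. Il2rb, the shared beta chain, measured 641, 1101 and 1326 with antibody against 256, 704 and 582 with vehicle (log2 difference 1.05, limma adjusted p = 0.0354 with the block). Il15ra, which presents IL-15, measured 65.3, 100 and 121 with antibody against 29.1, 44.9 and 60.9 with vehicle (1.09, limma adjusted p = 0.0338 with the block). Il2ra measured 71.7, 108 and 126 with antibody against 37.4, 53.3 and 70.9 with vehicle (0.91, limma adjusted p = 0.0394 with the block). Il12rb2, part of the receptor for IL-12, was low but separate, at 38.5, 27.7 and 43.3 with antibody against 23.9, 21.5 and 22.7 with vehicle (0.64, limma adjusted p = 0.0472 with the block). Il2, Il21, Il4 and Il12a were not tested because their signals were too low.

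The other genes called with the block are of mixed function. Slamf7, a receptor of NK and activated T cells, measured 85.6, 87.2 and 112 with antibody against 35.3, 52.3 and 54.6 with vehicle, and C2, a complement protease, 101, 140 and 168 with antibody against 50.9, 69.2 and 117 with vehicle. Abcg1, a cholesterol exporter, had the smallest log2 difference of the 32, 0.55, at 347, 456 and 543 with antibody against 237, 326 and 349 with vehicle. Cyfip2, a regulator of actin, measured 163, 292 and 332 with antibody against 87.3, 159 and 189 with vehicle, and the T cell adaptor gene Sh2d1a 52.4, 94.1 and 97.3 with antibody against 30.1, 52.3 and 62.8 with vehicle. In these last 3 genes the groups overlapped while each pair of one number was ordered alike. Tnfrsf11b, encoding the decoy receptor osteoprotegerin, and Cd1d2, which presents lipids, were near background, at 21.4, 36.7 and 34.4 with antibody against 12.5, 9.35 and 20.01 with vehicle and at 20.3, 31.7 and 28.5 with antibody against 15.6, 16.8 and 17.3 with vehicle.

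**Figure D4:**
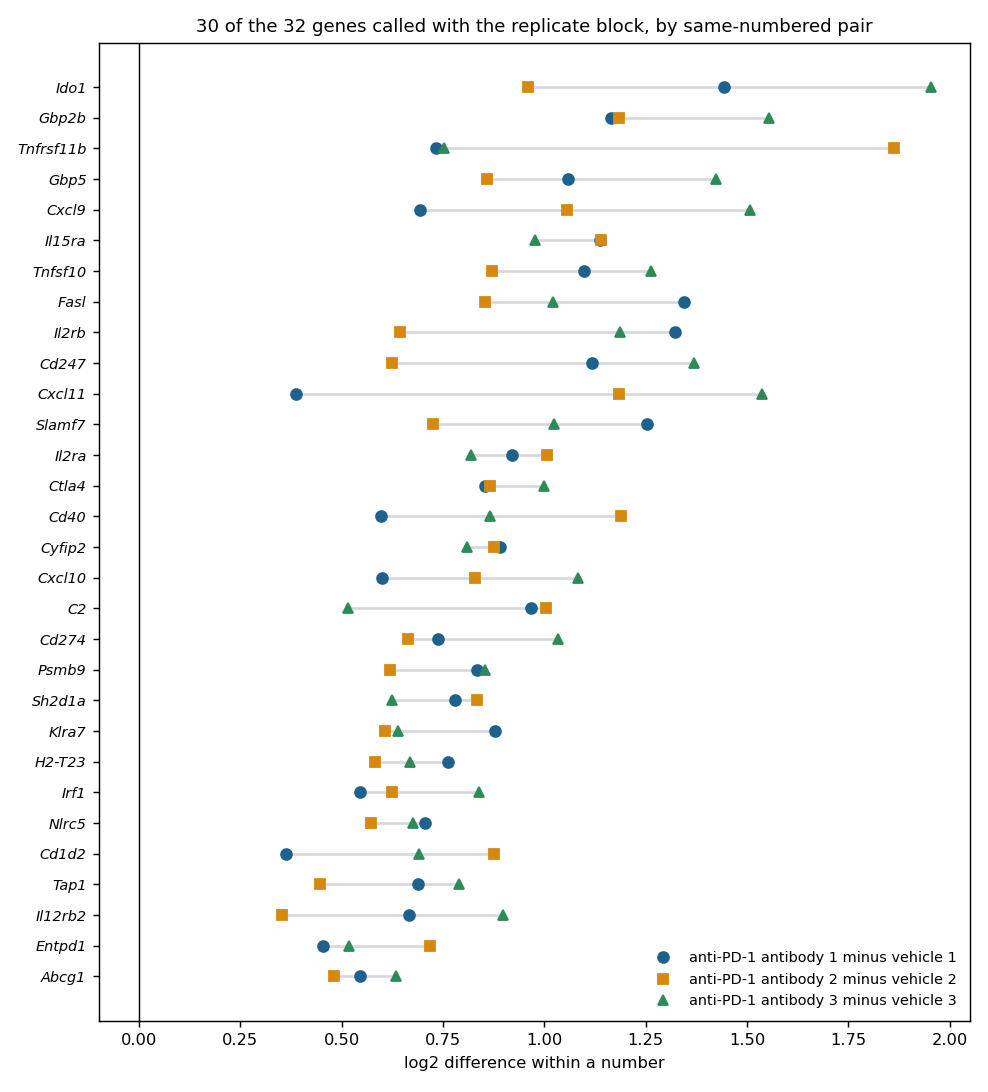
Rows are 30 of the 32 genes called with the block, ordered by log2 difference, and the x axis is the log2 difference between the anti-PD-1 antibody tumor and the vehicle tumor of one number. Every point lies to the right of 0, from 0.35 to 1.95, and the pair that differs most is not the same from gene to gene.

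In the lists of macrophages and monocytes, dendritic cells, and mast cells and eosinophils, 0 genes were called with the block, against 4.95% over all genes, so that such short lists would hold few calls at that share. The 12 macrophage and monocyte genes had a median of 0.09, and 0 had groups without overlap. Lyz2, encoding lysozyme, measured 11050, 21307 and 26693 in the antibody tumors and 10636, 20279 and 22435 in the vehicle tumors. It was lowest in the number 1 tumor of each group. Dendritic cell genes had a median of 0.52 and overlapped in 7 of 7 cases, Xcr1, a marker of cross-presenting cells, measuring 48.1, 69.4 and 111 with antibody against 29.1, 46.7 and 60.9 with vehicle. Of 6 mast cell and eosinophil genes, with a median of 0.50, 1 did not overlap. The B cell genes Ms4a1 and Cd79a were not tested because of low signal. Fibroblast genes split the vehicle tumors. Col3a1, a collagen, measured 4139, 10582 and 10654 with antibody against 1665, 2774 and 12670 with vehicle, vehicle 3 being above all antibody tumors. The largest log2 difference of all, 1.62 for Lbp, the lipopolysaccharide-binding protein, also had vehicle 3 near the antibody tumors, at 158, 226 and 136 with antibody against 23.9, 32.7 and 201 with vehicle (limma adjusted p = 0.381), as did Cfd, complement factor D, at 8.56, 323 and 430 with antibody against 18.7, 18.7 and 309 with vehicle. The part of these cells in the results above was not tested.

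Under the deposited scaling 206 of 646 genes had a negative difference, and in 13 the groups did not overlap. Msln was the only gene with an unadjusted p under 0.05 in that direction, with a log2 difference of -0.38 (SE 0.12, limma adjusted p = 0.202, 0.0636 with the block), its vehicle tumors lying within 2510 to 2550. It did not stand for its list, the 8 carcinoma and epithelial genes. Of these, 5 had a positive difference, with a median of 0.21. After median centring 3 were positive, with a median of -0.08. The other 12 non-overlapping genes differed by -0.20 to -0.07, and all 13 were negative under each scaling tried. They included Axl, a receptor tyrosine kinase, at 7656, 7173 and 7323 with antibody against 8339, 8207 and 8277 with vehicle, the integrin Itgb1 at 9884, 9580 and 9685 with antibody against 11195, 10360 and 10827 with vehicle, and the TGF-beta genes Tgfb3 and Smad3. Several lists had a median just below 0 under the deposited scaling, where all genes had 0.18. Those of NF-kB (-0.07), TGF-beta (-0.05), the IL-1 and IL-6 families (-0.08) and the cell cycle (-0.07) held 0 genes called with the block. After median centring, where all genes had -0.10, these medians were -0.36, -0.33, -0.36 and -0.36, with 0 members positive. The others were early activation genes (-0.04), myeloid attracting chemokines and receptors (-0.05) and endothelial cell genes (-0.03). After median centring their medians were -0.33, -0.34 and -0.32, with 3 of 10, 3 of 16 and 1 of 8 members positive. Tnf, the inflammatory cytokine, measured 63.1, 80.3 and 67.8 with antibody against 54.1, 87.9 and 60.9 with vehicle. The TLR genes had a median of 0.21, with Tlr7, the target of DSP-0509, at 81.3, 167 and 179 with antibody against 70.7, 147 and 149 with vehicle.

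Set against DSP-0509 alone, no gene of the antibody tumors passed the test. An unadjusted limma p under 0.05 was reached by 25 of 646 genes, no more than that threshold gives where no gene differs. The genes named here were of smallest p or named from the lists, so their separation is a description and not a test. In limma, 0 of 646 genes (0%) were called, with 22 higher genes (3.41%) and 3 lower genes (0.464%) at an unadjusted p under 0.05, a split of 13 higher and 10 lower after median centring and of 16 and 10 after quantile normalization. Il12b, the p40 subunit of IL-12 and IL-23, measured 30.0, 38.6 and 57.0 in the antibody tumors and 11.2, 13.0 and 13.6 in the DSP-0509 tumors, without overlap (limma adjusted p = 0.357), and since the DSP-0509 signals are near the negative probes no fold is given. Ccr7, the lymph node homing receptor of mature dendritic cells and naive T cells, measured 76.0, 77.3 and 98.3 with antibody against 39.1, 43.8 and 47.1 with DSP-0509, and Ccl22, a dendritic cell chemokine, 103, 90.2 and 127 with antibody against 53.7, 61.5 and 57.0 with DSP-0509, with no overlap in either (limma adjusted p = 0.704 and 0.743). Icam4, an adhesion molecule, was at 22.5, 26.8 and 20.6 with antibody against 12.3, 8.38 and 13.6 with DSP-0509. These signals were near the negative probes with DSP-0509. With antibody they were little above the highest negative probe, which reached 19, 21 and 17 counts in the 3 tumors. Of the 19 interferon gamma response genes, 16 had a negative difference from DSP-0509, with a median of -0.19 against -0.01 for all genes, Irf1 having -0.04 and Cd274 -0.06.

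Set against the combination, 459 of 646 genes had a negative difference under the deposited scaling, 292 after median centring and 302 after quantile normalization. Limma called 0 of 646 genes (0%), with 5 higher genes (0.774%) and 61 lower genes (9.44%) at an unadjusted p under 0.05, a split that turned to 41 higher and 14 lower after median centring and to 43 and 23 after quantile normalization. With the block, 3 genes (0.464%) were lower and 0 (0%) higher, and 0 were called once median centring was added. Cd274 measured 1191, 954 and 1128 in the antibody tumors and 2153, 1897 and 2271 in the combination tumors (log2 difference -0.95, limma adjusted p = 0.146, 0.0273 with the block). Il12rb2 measured 38.5, 27.7 and 43.3 with antibody against 63.3, 74.6 and 79.3 with the combination (-0.99, limma adjusted p = 0.146, 0.0273 with the block), and Abcg1 347, 456 and 543 with antibody against 592, 697 and 910 with the combination (-0.71, limma adjusted p = 0.0273 with the block). In each of these 3 genes the groups did not overlap, which adds no separate evidence since the genes were picked by p. Gbp2b, Gbp5 and Irf1 lay below all combination tumors as well, with log2 differences of -0.89, -0.84 and -0.59 (limma adjusted p = 0.303 for each). All 19 interferon gamma response genes had a negative difference under the deposited values, housekeeping scaling, quantile normalization and median centring, with a median of -0.59 against -0.20 for all genes. C3, the central complement protein, measured 1143, 927 and 1565 with antibody against 2627, 2395 and 2320 with the combination (-1.05, limma adjusted p = 0.303). The 3 genes of smallest p in the other direction were Icam4 at 22.5, 26.8 and 20.6 with antibody against 11.6, 10.3 and 13.1 with the combination, Il12b at 30.0, 38.6 and 57.0 with antibody against 20.06, 13.99 and 25.2 with the combination, and Lrrn3 at 52.4, 86.2 and 43.3 with antibody against 40.1, 38.2 and 30.8 with the combination (limma adjusted p = 0.303, 0.437 and 0.437). Their groups did not overlap, which is not separate evidence in genes picked by p. Icam4 and Il12b were near the negative probes in the combination tumors, and Icam4 was little above the highest of them in the antibody tumors. The comparisons with vehicle, DSP-0509 and the combination share the same 3 antibody tumors.

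**Figure D5:**
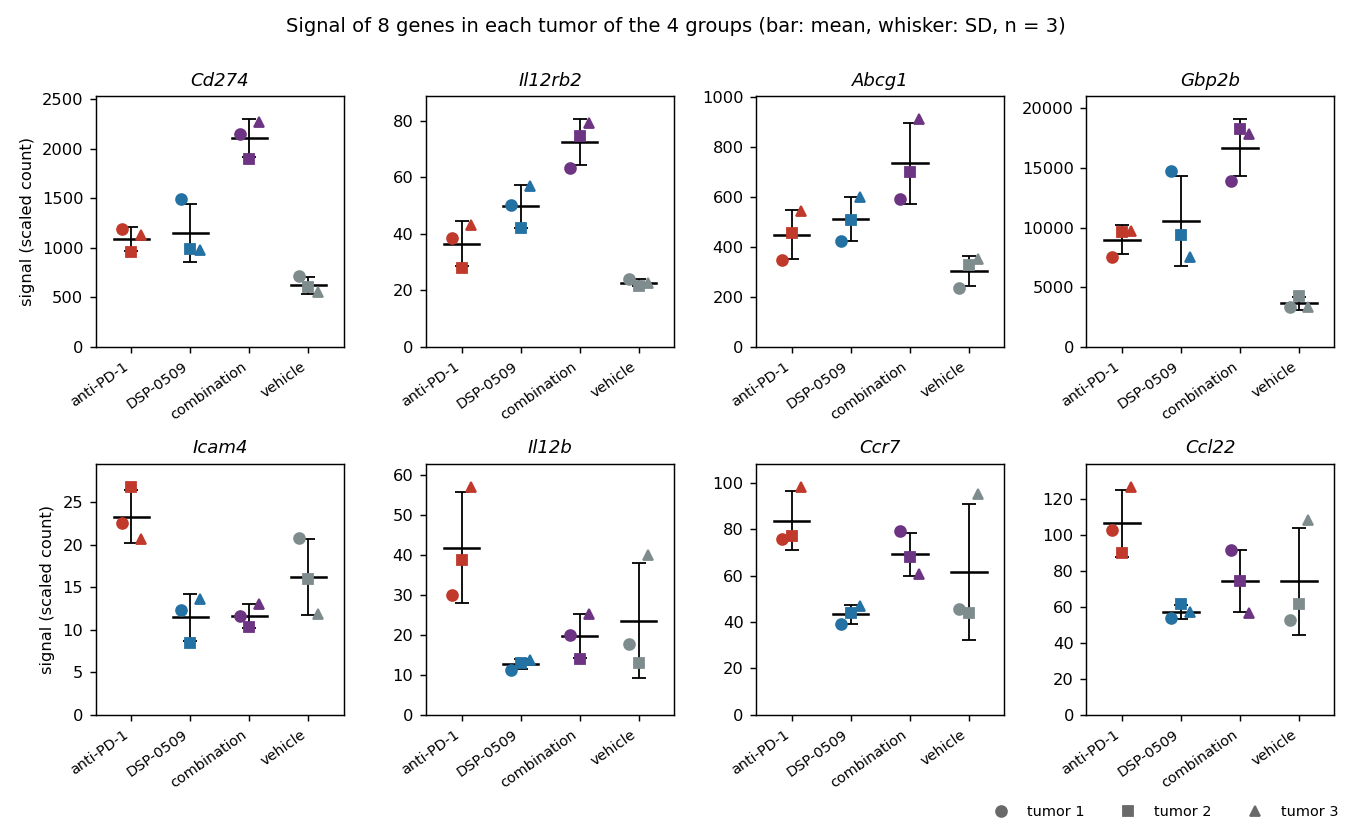
The y axis of each panel is signal, starting at 0, and groups run from anti-PD-1 antibody over DSP-0509 and the combination to vehicle, with symbols for tumor numbers, bars for the mean and whiskers for the SD of 3 tumors. The 3 combination tumors lie above the 3 antibody tumors for Cd274, Il12rb2, Abcg1 and Gbp2b, and the antibody tumors lie above the DSP-0509 tumors for Icam4, Il12b, Ccr7 and Ccl22. Icam4 and Il12b were near the negative probes with DSP-0509, and Icam4 was little above the highest of them with antibody.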

How the data were processed

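Whole-tumor RNA was counted by the authors on the nCounter system, with normalization in nSolver. The deposited unit is a signal, here found to be each gene's count times 1 factor per tumor, with no background taken off and the 14 control probes unscaled. How that factor was set is not given in the sources used here. Endogenous values were whole multiples of it within 0.1, from which total counts per tumor were read. Tests used log2(signal + 1) in limma (version 3.58.1, R 4.3.3), fitted to the 12 tumors as 4 groups without covariates, with Benjamini-Hochberg adjustment over the 646 genes tested. A call means an adjusted p under 0.05. With 3 tumors a group, p-values measure the spread between these tumors, and no exact test of a single gene can fall below 0.1. The fit was tested on simulated data with independent noise in each gene and tumor. Shifts shared by the genes of a tumor or by tumors of one number were not simulated. Plots were made with Python 3.11.15 and matplotlib 3.10.9.

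Tumors are numbered 1 to 3 in each group. Deviations from the group means over the 646 genes correlated, for equal numbers, at r of 0.68, 0.18 and 0.56 between anti-PD-1 antibody and vehicle tumors and at 0.69, 0.29 and 0.14 between anti-PD-1 antibody and combination tumors. As each exceeds 0.1, the number was taken as pairing, and blocked values stand beside results whose call they change. Between anti-PD-1 antibody and DSP-0509 tumors the third r was 0.09, so blocked values do not stand beside single genes in that comparison. The block was still fitted over the tumors of all groups. DSP-0509 tumors were therefore matched by number in the fit behind the calls with the block against vehicle and the combination. Anti-PD-1 antibody 2 correlated better with vehicle 3 (0.40) than with vehicle 2, and better with combination 3 (0.37) than with combination 2. Anti-PD-1 antibody 3 correlated better with combination 2 (0.24) than with combination 3, so that the pairing is uncertain beyond the tumors numbered 1.

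The comparison, gene lists and rules were chosen with earlier results of these data known, calls with the block included. Named genes were the 20 highest and 10 lowest by log2 difference without overlap, the 10 of smallest p with the block, genes the study names, as many as 4 from the top and from the bottom of a list, and, for the other comparisons, genes called or of smallest p. Any other gene named was picked after its values were seen, and a few genes are not reported here. The 36 lists hold common markers and functional groups of the panel and are described by counts and medians, untested. Promoters are RefSeq's on GRCm38.p6, which had an entry for 472 of the 646 genes.

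Alternatives were a pseudocount of 10, no filter, a filter of 50, housekeeping scaling over 20 genes, quantile normalization, median centring, background subtraction, the 6 tumors alone, array weights, the block, the methods' t-test, Benjamini-Yekutieli adjustment and each tumor left out. The methods' t-test is the unpaired t-test that the paper names for comparing groups. For nCounter data the paper names nSolver Advanced Analysis, which was not rerun here. Leaving out the tumors numbered 1, combining the block with another scaling, and testing housekeeping genes too were chosen after seeing the data.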

Additional observations from a re-analysis of the deposited data

How the results depend on the processing

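For anti-PD-1 antibody against vehicle, the count of 0 genes called in limma stayed at 0 under another pseudocount, no filter, a filter of 50, housekeeping scaling, quantile normalization, median centring, background subtraction, the 6 tumors alone, the methods' t-test (54 genes at an unadjusted p under 0.05, 0 after Benjamini-Hochberg), Benjamini-Yekutieli adjustment and without the tumors numbered 1. Array weights gave 165 calls there, 1 against DSP-0509 and 25 against the combination. With single tumors left out the calls against vehicle ran from 0 to 9, with 9 without vehicle 2, 3 without anti-PD-1 antibody 1 (Cxcl11, Gbp5 and Mefv) and 1 without DSP-0509 1 (Gbp2b), while against DSP-0509 and the combination they stayed at 0. Genes without overlap numbered 93, and 108 to 334 with a tumor left out (334 without anti-PD-1 antibody 1, 142, 147 and 175 without vehicle 1, 2 and 3), fewer tumors making overlap less likely. The median log2 difference of 0.18 was -0.057 after quantile normalization and -0.10 after median centring, and ran from 0.10 to 0.31 with a tumor left out. Why these values moved was not tested.

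The replicate block over all 12 tumors gave 32 calls against vehicle, 3 against the combination and 0 against DSP-0509. Joined with housekeeping scaling it gave 53, 3 and 0, and joined with median centring 0, 0 and 1, so that the 32 calls depend on the scaling.

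Of 99 genes named, 86 kept their direction against vehicle in every setting. Median centring, with or without the block, gave -0.058 for H2-D1, -0.22 for Ifngr1, -0.28 for Jak1, -0.16 for Lyz2, -0.15 for Tigit, -0.069 for Tlr7 and -0.20 for Tnf. Quantile normalization gave -0.032 for Ifngr1, -0.10 for Jak1, -0.18 for Tigit, -0.11 for Tlr7, -0.33 for Tnf and -0.0068 for Tyk2, and array weights -0.071 for Tnf. With single tumors left out, Arg1 ran from -1.02 to 0.30, Btla from -0.11 to 0.63, Egr1 from -0.42 to 0.0032, Ifngr1 from -0.046 to 0.25, Isg20 from -0.19 to 0.043, Jak1 from -0.071 to 0.10, Lrrn3 from -0.41 to 0.084, Lyz2 from -0.21 to 0.50, Tlr7 from -0.14 to 0.58 and Tnf from -0.062 to 0.28. The cause was not tested.

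Signals near the negative probes, as for Ifng, Foxp3, Cd1d2 and Tnfrsf11b, carry a share of background that understates their fold changes. A model of counts was planned and not run, because control probes and genes are on different scales in the deposited columns.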
